A study of Homo sapiens with 4 samples.

Results

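The genes described here are 8 members of the WNT pathway: the ligands WNT5A and WNT6, the ligand enhancer RSPO3, the secreted or membrane-bound inhibitors SFRP1, SFRP2 and APCDD1, and the transcription factors LEF1 and TCF7L1. They were taken by gene symbol from all 4 tables of the series, and they are 8 of the 23364 genes listed in at least 1 table. Single-cell RNA was measured in KhES1, a line of human embryonic stem cells (samples hESC 1 and hESC 2), and in blastoids, blastocyst-like aggregates made from the same line (blastoid 3 and blastoid 4). The KhES1 cells were kept on Matrigel in mTeSR-1 medium. For the blastoids, KhES1 aggregates formed in Aggrewell plates with Y27632, an inhibitor of the kinase ROCK, were embedded in a PNIPAAm-β-PEG hydrogel, kept for 3 days in DMEM with FBS and then fed iBlastoid medium daily. The composition of the iBlastoid medium was not given in the sources used here. All 4 titles carry day 0, whereas the names of the blastoid tables carry day 9; each sample's description set its group. All cells came from 1 line, and nothing in the labels says that the 2 samples of a group were separate cultures, so the p-values of the comparison of all cells measure the spread between these samples, which may be technical.

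WNT proteins are secreted lipid-modified ligands that bind Frizzled receptors and their co-receptors. In the canonical branch they stabilise β-catenin, which enters the nucleus and acts on target genes through the TCF/LEF transcription factors. R-spondins sustain the signal by keeping Frizzled receptors at the cell surface, while SFRP proteins bind WNT ligands outside the cell. WNT5A is best known for the branch that does not need β-catenin and acts on cell shape and migration. In the early embryo WNT signals act in the formation of the primitive streak and mesoderm, and in pluripotent cells TCF7L1 is known mainly as a repressor of WNT targets.

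The sequences just before the start sites of WNT5A, LEF1, APCDD1 and RSPO3 are shown because these 4 genes had their highest levels in the same class of blastoid cells. Each line holds the 250 bases before a RefSeq start site in GRCh38.p14, read 5′ to 3′ on the strand of the gene, and capitals mark the TCF/LEF core CTTTG on either strand. The windows are chr3:55487307-55487556 on the minus strand for WNT5A, chr4:108166302-108166551 on the minus strand for LEF1, chr18:10454385-10454634 on the plus strand for APCDD1 and chr6:127118421-127118670 on the plus strand for RSPO3.
WNT5A: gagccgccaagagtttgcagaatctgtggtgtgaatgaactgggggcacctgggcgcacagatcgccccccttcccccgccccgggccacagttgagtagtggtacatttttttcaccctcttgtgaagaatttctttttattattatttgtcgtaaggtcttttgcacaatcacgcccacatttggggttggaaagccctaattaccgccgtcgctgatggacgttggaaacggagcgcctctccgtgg
LEF1: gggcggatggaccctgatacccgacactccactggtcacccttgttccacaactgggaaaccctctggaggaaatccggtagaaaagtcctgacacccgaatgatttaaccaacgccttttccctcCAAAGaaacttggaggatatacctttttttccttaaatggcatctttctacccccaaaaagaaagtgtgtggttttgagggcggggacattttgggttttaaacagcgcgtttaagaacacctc
APCDD1: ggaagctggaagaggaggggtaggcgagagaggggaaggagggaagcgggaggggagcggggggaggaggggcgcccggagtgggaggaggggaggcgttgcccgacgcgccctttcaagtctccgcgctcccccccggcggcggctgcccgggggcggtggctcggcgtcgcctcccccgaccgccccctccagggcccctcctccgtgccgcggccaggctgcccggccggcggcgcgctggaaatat
RSPO3: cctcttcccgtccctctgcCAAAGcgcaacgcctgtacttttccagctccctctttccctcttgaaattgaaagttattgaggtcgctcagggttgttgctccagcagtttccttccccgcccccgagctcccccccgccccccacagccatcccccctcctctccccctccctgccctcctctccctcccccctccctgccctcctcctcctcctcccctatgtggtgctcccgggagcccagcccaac
The LEF1 and RSPO3 windows each held 1 CTTTG, and those of WNT5A and APCDD1 held 0. The core was in 42.07% of the 35116 promoter windows of the same length, so its presence in a window is common. The longer forms CTTTGA and CTTTGT, which contain the core, were searched on both strands too. They were in 11.21% and 13.72% of all windows and in none of the windows of the 7 members with a sequence used here, and a match or its absence only describes these letters. GC content was 47.6% for LEF1, 52.8% for WNT5A, 64.8% for RSPO3 and 77.2% for APCDD1, against a median of 58.0% over all windows. WNT5A has another RefSeq start site, whose window (chr3:55481399-55481648, minus strand) had a GC content of 64.4% and is not shown.

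In GENCODE v29 (GRCh38) the members are protein-coding genes. WNT5A lies on chromosome 3 at 55465715 to 55490539, WNT6 on chromosome 2 at 218859821 to 218874233, LEF1 on chromosome 4 at 108047545 to 108168956 and APCDD1 on chromosome 18 at 10454628 to 10489948. SFRP2 lies on chromosome 4 at 153780592 to 153789120, RSPO3 on chromosome 6 at 127118604 to 127197765 and TCF7L1 on chromosome 2 at 85133410 to 85310388. LEF1 shares 279 exon bases with the antisense gene LEF1-AS1, and because the sources used here do not say whether counting used strand, reads from those bases cannot be told apart.

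The 4 tables held 2071 to 7575 barcodes and 14930662 to 18193164 UMIs, a UMI being a tag that counts each captured molecule once. Cells with at least 500 genes were kept, 5413 from the hESC and 4194 from the blastoid samples, with median depths of 4996 to 8798 UMIs. The samples of a group shared barcodes: 1317 were in both hESC tables and 1035 in both blastoid tables. These included 1310 of the 3175 kept cells of hESC 2 and 1010 of the 1916 kept cells of blastoid 4. In the partner samples they included 26 kept cells of hESC 1 and 0 of blastoid 3. Barcodes kept in both samples of a group numbered 23 for the hESC and 0 for the blastoid samples. UMIs were summed over the kept cells of each sample and are given as CPM, counts scaled to a library of 1000000, on TMM-scaled library sizes.

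Every member differed between the blastoid and hESC samples. WNT5A, WNT6, RSPO3, APCDD1 and LEF1 were higher in the blastoids, and SFRP1, SFRP2 and TCF7L1 were lower. Of all 16332 genes tested with edgeR's quasi-likelihood test, 27.1% were called higher and 22.8% lower at an adjusted p under 0.05, which is the background for the 5 members called higher and the 3 called lower. WNT6 and RSPO3 had 0 UMIs in the hESC samples and could not have been called lower. The sums mix cell types, whose values are given further on. Leaving out the shared barcodes kept all 8 calls and directions.

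WNT5A, the ligand of the β-catenin-independent branch, was at 1.84 and 1.30 CPM in hESC 1 and 2 and at 261 and 162 CPM in blastoid 3 and 4. Both blastoid samples were far above both hESC samples. The difference was 136-fold (log2 fold change 7.09 ± 0.33 SE, adjusted p = 1.25e-05), and 7.21 on the log2 scale without the shared barcodes. WNT6, a ligand associated with epithelia, was missing from both hESC tables and reached 7.81 and 15.6 CPM in the blastoid samples, from 128 and 278 UMIs. Taking a missing gene as present in up to 2 barcodes of each hESC table gives a limit of 0.328 CPM there, and the level over the pooled UMIs of both blastoid samples was at least 36.2-fold higher (adjusted p = 0.000338).

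RSPO3, which binds LGR receptors and enhances the response to WNT, was also missing from both hESC tables. It stood at 17.9 and 16.9 CPM in the blastoid samples, from 294 and 301 UMIs. The level over their pooled UMIs was at least 53.1-fold above the same hESC limit (adjusted p = 2.25e-05).

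The 3 inhibitors did not move in 1 direction. APCDD1, a membrane protein that binds WNT and LRP proteins and is itself a target of the pathway, was at 1.68 and 1.88 CPM in the hESC samples and at 32.5 and 39.7 CPM in the blastoids. The groups did not overlap, and the blastoid level was 20.1-fold higher (log2 4.33 ± 0.21, adjusted p = 1.27e-05). SFRP1 was at 681 and 749 CPM in the hESC samples against 69.5 and 79.4 CPM in the blastoids, 9.60-fold lower in the latter (log2 -3.26 ± 0.15, adjusted p = 1.22e-05). SFRP2, a second secreted Frizzled-related inhibitor, went from 516 and 540 CPM to 29.9 and 27.8 CPM. This 18.3-fold fall (log2 -4.19 ± 0.14, adjusted p = 4.98e-06) was larger than the spread between the 2 samples of either group.

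The transcription factors moved in opposite directions. LEF1, which activates target genes with β-catenin and is itself a common target, was at 1.12 and 0.649 CPM in the hESC samples and at 134 and 97.4 CPM in the blastoids, a 133-fold rise (log2 7.05 ± 0.29, adjusted p = 8.58e-06). TCF7L1 was at 126 and 138 CPM in the hESC samples and at 36.1 and 42.0 CPM in the blastoids. The blastoid samples were both lower, by 3.38-fold (log2 -1.76 ± 0.14, adjusted p = 8.83e-05).

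**Figure D1:**
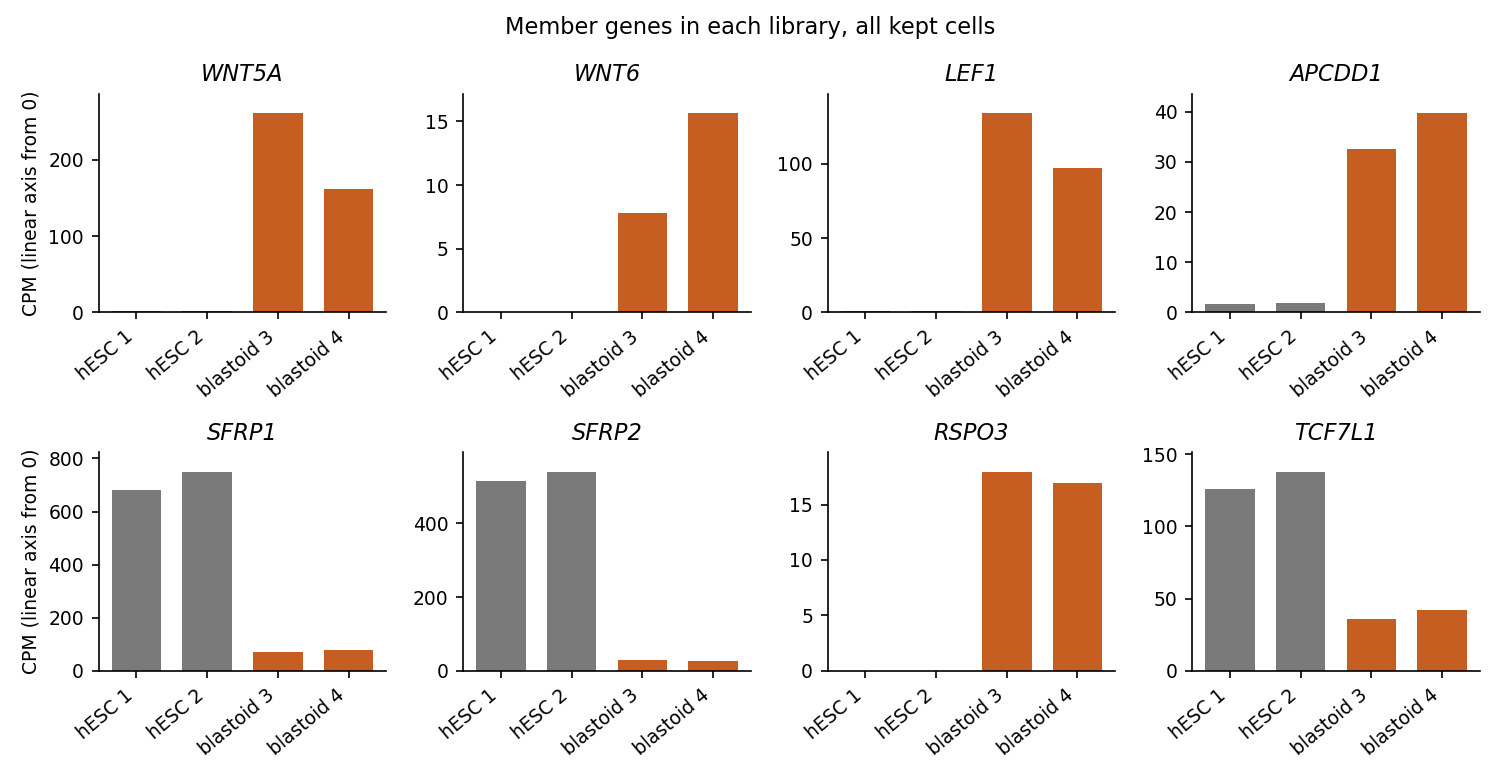
Bars give the CPM of each member gene (linear vertical axis from 0, with its own range for each gene) in hESC 1, hESC 2, blastoid 3 and blastoid 4, summed over kept cells. SFRP1, SFRP2 and TCF7L1 were higher in both hESC samples, and the other 5 genes were higher in both blastoid samples; WNT6 and RSPO3 had 0 UMIs in the hESC samples.

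The other genes of the pathway were taken from 102 genes listed by role, of which 100 were in a table and 86 were tested. Of these, 51 were called higher in the blastoids, 11 lower and 24 were not called. Over all 16332 genes tested, 27.1% were called higher and 22.8% lower. These shares are the background for the counts of each role list below too. The median log2 fold change of the 86 was 0.87 against 0.05 over all genes tested. Of the 86, 12 had 0 UMIs in 1 of the groups, as had 444 of all 16332 genes tested. These lists hold the members and were chosen with earlier results of these data known.

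Of 19 ligands listed, 9 were tested, and 8 of these were called higher and none lower. Of the 9, 4 had 0 UMIs in the hESC samples. These passed the filter on counts only through the blastoids and could not have been called lower. Beside WNT5A, WNT5B rose by 4.99 ± 0.28 on the log2 scale (36 UMIs in the hESC and 1413 in the blastoid samples). WLS, the carrier that takes WNT proteins to the cell surface, rose by 6.20 ± 0.33. All 4 R-spondins tested were called higher, 2 of them with 0 UMIs in the hESC samples. RSPO2 went from 4 UMIs to 2209 (log2 8.74 ± 0.38). Of the 4 tested R-spondin receptors and the ligases they act on, 3 were called higher, among them the receptor LGR4 (log2 1.46 ± 0.17). Another of the 3, LGR5, had 0 UMIs in the hESC samples and could not have been called lower.

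Of the 12 inhibitors tested, 10 were called higher, and the 2 called lower were the members SFRP1 and SFRP2. Of those called higher, 2 had 0 UMIs in the hESC samples. Receptors were mixed, with 6 of 16 called higher, 2 lower and 8 not called. FZD7, a Frizzled receptor abundant in pluripotent cells, fell by 2.10 ± 0.15 on the log2 scale, while FZD6 and the co-receptor PTK7 rose by 0.76 ± 0.15 and 0.48 ± 0.14. The other receptors called higher had a mean log2 CPM under 4 and rose more. These were FZD10 (4.75 ± 0.34), FZD1 (2.42 ± 0.32), ROR2 (2.41 ± 0.22) and FZD4 (0.92 ± 0.23). Of 14 intracellular components, 6 were called higher and 2 lower, with β-catenin itself (CTNNB1) at 0.80 ± 0.14 and its inhibitor CTNNBIP1 at -0.80 ± 0.17 on the log2 scale. The largest rise among them was that of PYGO1 (3.37 ± 0.35), also with a mean log2 CPM under 4. These receptor and intracellular differences were all smaller than those of the called members LEF1 and WNT5A.

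Of 20 commonly used target genes tested, which include LEF1 and APCDD1, 16 were called higher, 1 lower and 3 were not called. The median log2 fold change was 3.37 when the 5 genes without hESC UMIs were set at their bounds. These 5 could not have been called lower. Targets differed widely in size and direction. AXIN2 rose by 0.91 ± 0.17 on the log2 scale, CCND1 was not called (0.02 ± 0.14), and MYC was the 1 called lower (-1.57 ± 0.18). These 3 genes were outside the rule for named genes. CDX2, a homeobox gene of trophectoderm and posterior mesoderm, had 0 UMIs in the hESC and 1905 in the blastoid samples and was at least 170-fold higher. Its levels by class of cells are given further on. MSX2, which is also a target of BMP signals, rose by 8.64 ± 0.24 on the log2 scale. Of 9 planar polarity genes, 2 were called higher and 3 lower, with DAAM1 at 1.71 ± 0.12 and VANGL2 at -1.45 ± 0.21. The targets are regulated by other pathways too, and they were not measured here under a WNT inhibitor or activator.

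**Figure D2:**
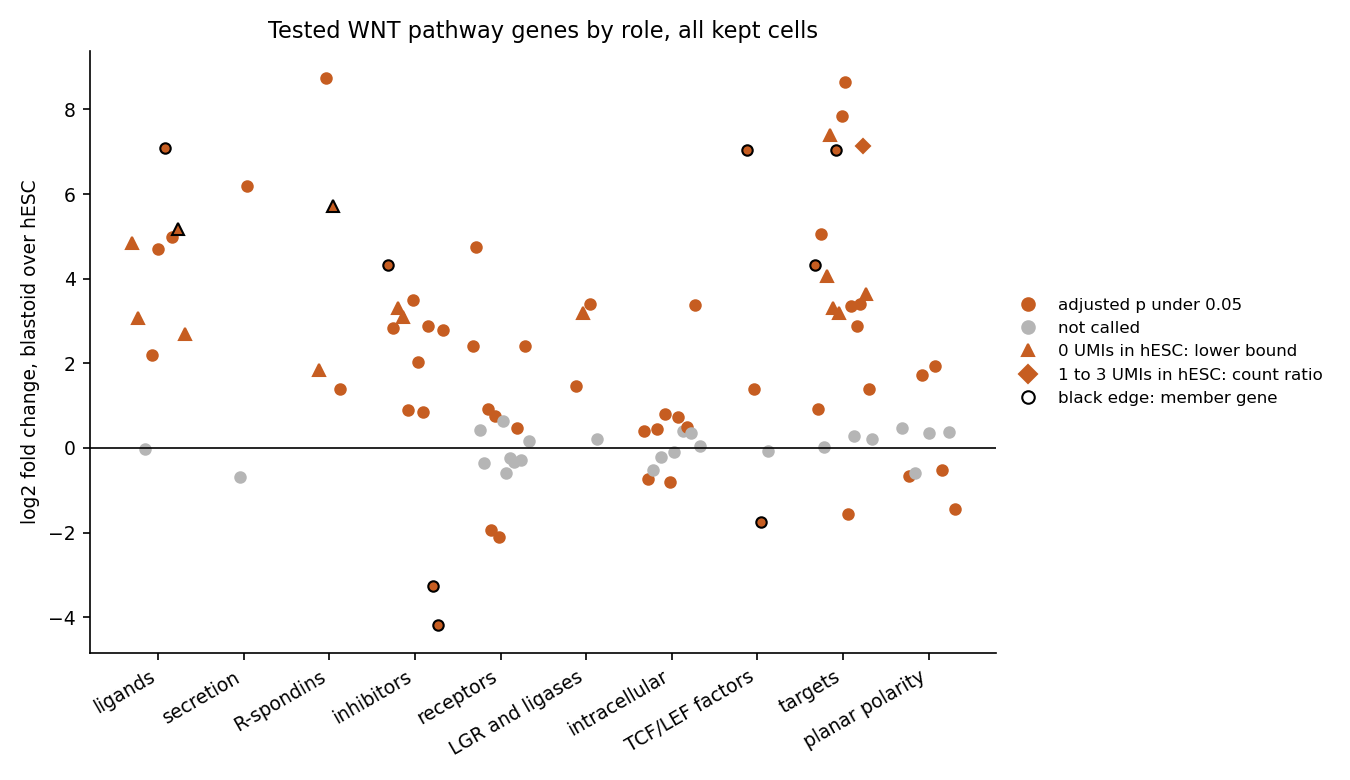
Log2 fold change (blastoid over hESC, all kept cells) of each tested WNT pathway gene, grouped by role, with orange for an adjusted p under 0.05 and grey for the rest. Triangles are lower bounds for genes with 0 UMIs in the hESC samples, a diamond is a ratio of counts, and a black edge marks a member; the ligands, R-spondins, inhibitors and targets lie mostly above 0, with SFRP1 and SFRP2 below it.

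To ask which blastoid cells held each gene, all kept cells were clustered with the 102 WNT genes left out, and each cluster was named from markers of 6 cell types. Mesoderm/mesenchyme-like cells were 77.3% of blastoid 3 and 61.2% of blastoid 4 (1760 and 1172 cells), and trophectoderm/amnion-like cells were 18.1% and 33.0% (413 and 632 cells). Pluripotent-like cells were 4.52% and 5.79% of the blastoid samples (103 and 111 cells) and 92.9% and 91.8% of the hESC samples. The summed level of the mesoderm/mesenchyme markers was 5383 and 5183 CPM in the class of that name and 1100 to 1219 CPM in the trophectoderm/amnion-like class. Markers used for trophectoderm and for amnion were pooled in a single list, so the 2 tissues were not separated. The only cluster of the trophectoderm/amnion-like class, cluster 2, was led by PAPPA2, IGFBP7, GABRP, VTCN1 and CYP1B1. Of these, GABRP and VTCN1 are on that list. Hypoblast/endoderm markers summed to 22.8 CPM or less in every class, so no class represents the hypoblast.

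The pluripotent-like cells of the 2 groups came from different clusters. Those of the hESC samples were in clusters 0, 3, 4 and 8, and those of the blastoids were mostly in cluster 10, with 26 cells in cluster 4. In cluster 10, 12 pluripotent and 10 trophectoderm/amnion markers were found in 10% or more of the cells. Its 10 leading genes included 0 pluripotent markers. POU5F1, the defining pluripotency factor, was at 771 and 938 CPM of total UMIs in the blastoid pluripotent-like cells and at 1151 and 1136 CPM in those of the hESC samples. Trophectoderm/amnion markers summed to 1373 to 1628 CPM in the blastoid pluripotent-like cells and to 596 to 632 CPM in the hESC ones, where GATA3, GATA2, TFAP2A, VTCN1, ISL1 and TP63 were at 0. GATA3 was at 39.0 and 18.3 CPM of total UMIs in the pluripotent-like cells of blastoid 3 and 4. With cells placed at Leiden resolution 1.0 it was at 4.70 and 1.70 CPM there. The part of trophectoderm/amnion markers, or of cells holding them, in the differences reported for the blastoid pluripotent-like cells was not tested.

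WNT5A, LEF1, APCDD1 and RSPO3 were highest in the mesoderm/mesenchyme-like cells, WNT6 was highest in the trophectoderm/amnion-like cells, and SFRP2 was highest, among blastoid cells, in the pluripotent-like cells. Between the trophectoderm/amnion-like and the mesoderm/mesenchyme-like cells, 3 members were called higher in the former and 5 lower, where 23.8% and 24.1% of 15917 genes were called. Between mesoderm/mesenchyme-like and blastoid pluripotent-like cells, 6 members were called higher and 2 lower, against 15% and 16.5% of all genes. Between trophectoderm/amnion-like and blastoid pluripotent-like cells, 4 were called higher, 1 lower and 3 were not called, against 16.2% and 15.9% of all genes. The fit over classes has a term for the blastoid sample, so its p-values measure the spread that remains after this term. Calls made with 1 sample left out rest on a single sum in an arm, assumed to vary like the other groups.

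The ligands WNT5A and WNT6 were high in different classes. WNT5A was at 331 and 262 CPM in the mesoderm/mesenchyme-like cells of blastoid 3 and 4, at 13.8 and 17.4 CPM in the trophectoderm/amnion-like cells, and at 28.2 and 11.3 CPM in the pluripotent-like cells. It was 17.8-fold lower in trophectoderm/amnion-like than in mesoderm/mesenchyme-like cells (log2 -4.15 ± 0.15, adjusted p = 1.08e-20). The 2 lower classes were not told apart (log2 -0.15 ± 0.30, adjusted p = 0.756), and the sign of that difference turned to 0.65 without blastoid 3. With 15 principal components or with cells placed by detected markers, WNT5A was called lower in the trophectoderm/amnion-like cells (log2 -2.05 and -2.48). Its excess in mesoderm/mesenchyme-like over pluripotent-like cells was 4.01 ± 0.20 on the log2 scale (adjusted p = 7.40e-17), and 1.98 and 1.41 under those placements. The mesoderm/mesenchyme-like cells gave 98.5% and 96.0% of the WNT5A UMIs of the 2 blastoid samples and 76.2% and 57.9% of all UMIs.

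WNT6 was at 39.3 and 43.3 CPM in the trophectoderm/amnion-like cells and at 0.785 and 1.61 CPM in the mesoderm/mesenchyme-like cells. The difference was 34.7-fold (log2 5.12 ± 0.24, adjusted p = 2.27e-17), with no overlap between the samples. The trophectoderm/amnion-like cells gave 86.7% and 89.6% of the WNT6 UMIs and 18.5% and 34.3% of all UMIs. In the blastoid pluripotent-like cells WNT6 was at 8.23 and 9.05 CPM from 7 and 12 UMIs, which placed it above the mesoderm/mesenchyme-like cells (log2 2.86 higher, adjusted p = 2.90e-05) and below the trophectoderm/amnion-like cells (log2 2.26 ± 0.30 higher in the latter, adjusted p = 6.18e-07). That intermediate level depended on where the cells were placed. With Leiden resolution 1.0 the pluripotent-like cells held 0 and 1 WNT6 UMIs, the difference from the mesoderm/mesenchyme-like cells changed sign (log2 1.11, adjusted p = 0.564), and that from the trophectoderm/amnion-like cells grew to 6.24.

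RSPO3 was at 22.9 and 28.4 CPM in the mesoderm/mesenchyme-like cells, at 0 and 0.348 CPM in the trophectoderm/amnion-like cells and at 2.35 and 0 CPM in the blastoid pluripotent-like cells. The mesoderm/mesenchyme-like cells gave 99.3% of its UMIs in each blastoid sample. The other classes held 2 UMIs each, and the ratio of the mesoderm/mesenchyme-like level to theirs was 109 (exact 95% counting interval 29.99 to 901) for trophectoderm/amnion-like and 27.6 (7.61 to 229) for pluripotent-like cells. Both differences were called by edgeR (adjusted p = 8.39e-14 and 6.01e-08) and not by DESeq2 (adjusted p = 0.0784 and 0.321). In blastoid 3 alone, which held both RSPO3 UMIs of the pluripotent-like cells, the levels were 22.9 and 2.35 CPM.

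APCDD1 was at 41.1 and 63.7 CPM in the mesoderm/mesenchyme-like cells, at 2.83 and 5.22 CPM in the trophectoderm/amnion-like cells and at 1.18 and 3.77 CPM in the blastoid pluripotent-like cells. It was 12.7-fold lower in trophectoderm/amnion-like than in mesoderm/mesenchyme-like cells (log2 -3.67 ± 0.20, adjusted p = 2.83e-16). Its excess in mesoderm/mesenchyme-like over pluripotent-like cells was 4.32 ± 0.34 on the log2 scale (adjusted p = 7.28e-12), 5.12 without blastoid 4 and 2.99 with cells placed by detected markers. The 2 lower classes were not told apart (log2 0.64 ± 0.57, adjusted p = 0.438, and -0.55 with cells placed by detected markers).

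The SFRP inhibitors differed from APCDD1 and from each other in which cells held them. SFRP1 was at 70.1 and 72.2 CPM in mesoderm/mesenchyme-like, 82.1 and 111 CPM in trophectoderm/amnion-like and 14.1 and 10.6 CPM in blastoid pluripotent-like cells. It was 6.04-fold higher in mesoderm/mesenchyme-like than in pluripotent-like cells (log2 2.60 ± 0.23, adjusted p = 7.63e-11, and 1.62 with cells placed by detected markers). The higher level in trophectoderm/amnion-like than in mesoderm/mesenchyme-like cells was small (log2 0.45 ± 0.11, adjusted p = 0.000893) and was not called without blastoid 4 (0.22 ± 0.18, adjusted p = 0.380). Without a term for the sample its size was 0.45 ± 0.17 and its adjusted p 0.0539.

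SFRP2 was at 196 and 163 CPM in the blastoid pluripotent-like cells, at 24.6 and 25.0 CPM in the mesoderm/mesenchyme-like cells and at 2.83 and 2.61 CPM in the trophectoderm/amnion-like cells, with no overlap between classes. It was 7.19-fold lower in mesoderm/mesenchyme-like than in pluripotent-like cells (log2 -2.85 ± 0.12, adjusted p = 2.87e-18). From mesoderm/mesenchyme-like to trophectoderm/amnion-like cells it was lower again by 9.06-fold (log2 -3.18 ± 0.22, adjusted p = 1.21e-13). The pluripotent-like cells gave 34.1% and 43.7% of the SFRP2 UMIs of the blastoid samples and 5.27% and 7.74% of all UMIs.

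LEF1 was at 164 and 152 CPM in the mesoderm/mesenchyme-like cells, at 31.5 and 20.5 CPM in the trophectoderm/amnion-like cells and at 12.9 and 8.29 CPM in the blastoid pluripotent-like cells. It was 6.31-fold lower in trophectoderm/amnion-like than in mesoderm/mesenchyme-like cells (log2 -2.66 ± 0.13, adjusted p = 2.75e-17). Its excess in mesoderm/mesenchyme-like over pluripotent-like cells was 3.94 ± 0.22 on the log2 scale (adjusted p = 2.02e-15), and 2.09 with cells placed by detected markers. The higher level in trophectoderm/amnion-like than in pluripotent-like cells (log2 1.28 ± 0.30, adjusted p = 0.00118) was lost with 15 principal components (0.33, adjusted p = 0.327) and changed sign with cells placed by detected markers (-0.47, adjusted p = 0.106).

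TCF7L1 was at 52.7 and 49.1 CPM in trophectoderm/amnion-like, 33.4 and 41.7 CPM in mesoderm/mesenchyme-like and 18.8 and 19.6 CPM in blastoid pluripotent-like cells. The lowest level was thus in the pluripotent-like cells, 2.63-fold below the trophectoderm/amnion-like cells (log2 1.39 ± 0.22, adjusted p = 7.30e-06). The mesoderm/mesenchyme-like cells lay between them. They were above the pluripotent-like cells by 0.97 ± 0.22 on the log2 scale (adjusted p = 0.000814), and by 0.84 ± 0.35 without blastoid 4, which was not called (adjusted p = 0.113). The trophectoderm/amnion-like cells were above them by 0.42 ± 0.12 (adjusted p = 0.00472), and by 0.27 ± 0.17 without blastoid 3, which was not called (adjusted p = 0.226).

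**Figure D3:**
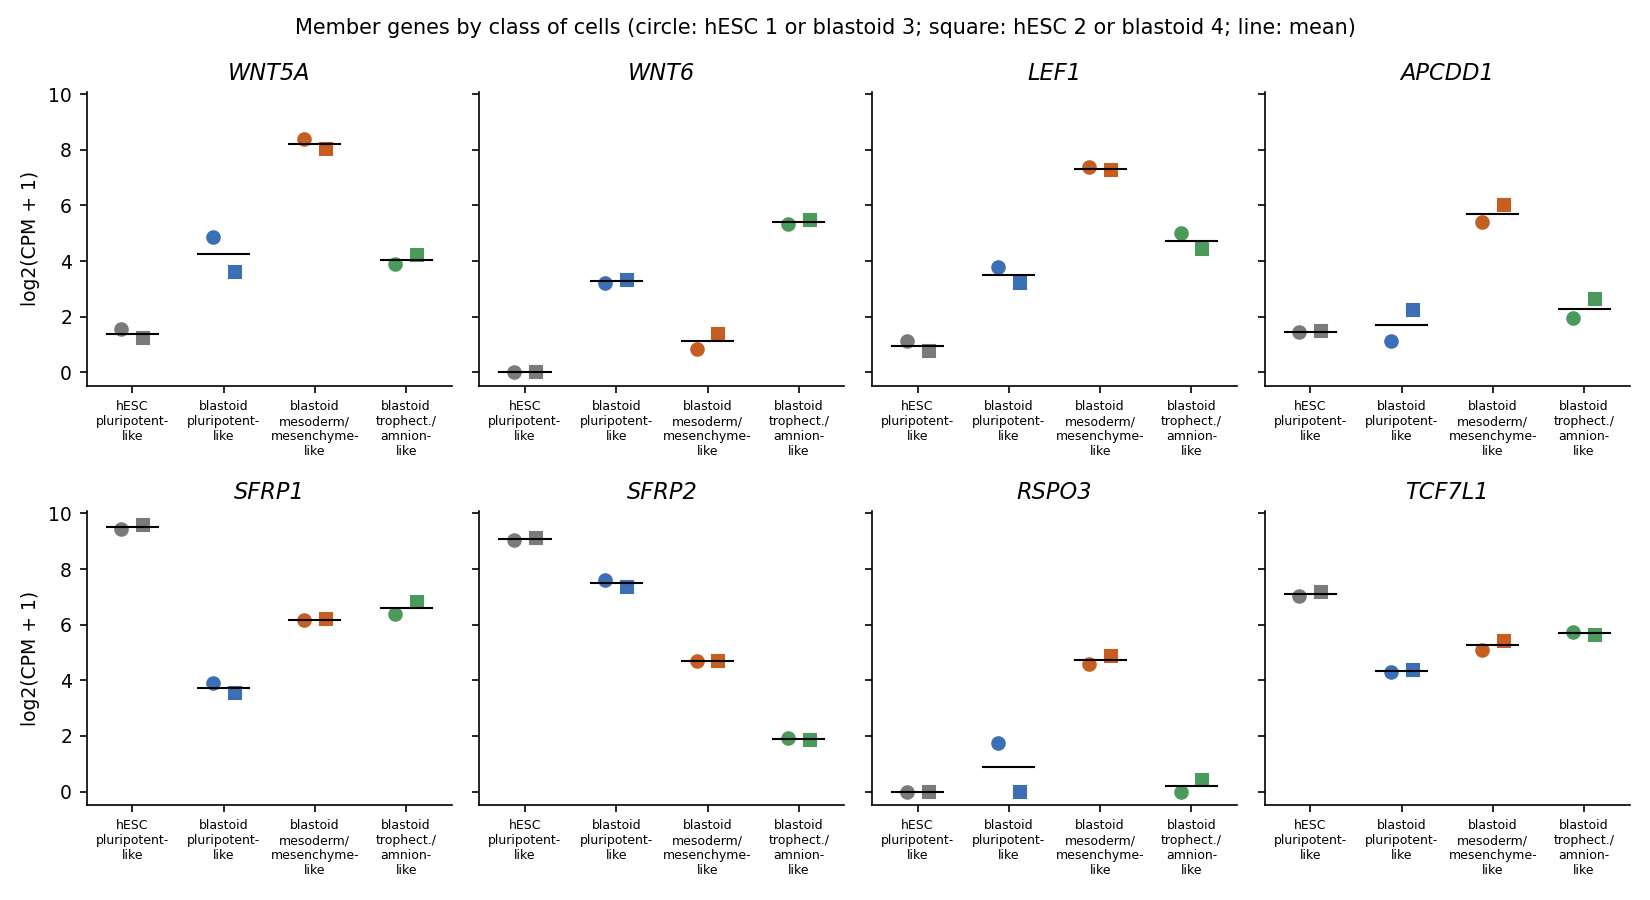
Level of each member as log2(CPM + 1) in each sample's cells of each marker-defined class, with circles for hESC 1 and blastoid 3, squares for hESC 2 and blastoid 4 and lines for means. WNT5A, LEF1, APCDD1 and RSPO3 were highest in both mesoderm/mesenchyme-like sums, WNT6 in both trophectoderm/amnion-like sums, and SFRP1, SFRP2 and TCF7L1 in both hESC sums.

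Some RNA can move between droplets, so low levels in a class were set beside COL3A1, a collagen of mesenchyme that had 0 UMIs in the hESC pluripotent-like cells. In blastoid 3 and 4, the level in trophectoderm/amnion-like cells was 4.93% and 8.36% of that in mesoderm/mesenchyme-like cells for COL3A1, 4.17% and 6.65% for WNT5A and 6.88% and 8.20% for APCDD1. LEF1 was at 19.2% and 13.5% by the same measure, above COL3A1 in both samples, and SFRP1 was at 117% and 154%. RSPO3 was at 0% and 1.23%, below COL3A1 in both samples, so genes of the mesoderm/mesenchyme-like cells did not share 1 ratio. COL3A1 is also among the markers that named the classes. WNT5A and APCDD1 levels in the trophectoderm/amnion-like cells were thus no higher, relative to the mesoderm/mesenchyme-like cells, than the collagen in 3 of these 4 values, and the part of free RNA was not tested.

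The same genes were compared between the pluripotent-like cells of the blastoid and hESC samples, where 14% of genes were called higher and 14.7% lower. This comparison lies between samples while the fit takes out the difference between blastoid 3 and 4, and without that term the genes called fell from 4577 to 2930. The adjusted p without the term is therefore given as well. WNT5A, WNT6, LEF1 and RSPO3 were called higher in the blastoid cells, SFRP1, SFRP2 and TCF7L1 lower, and APCDD1 was not called. SFRP1 was at 699 and 774 CPM in the hESC cells and at 14.1 and 10.6 CPM in the blastoid cells, 62.4-fold lower (log2 -5.96 ± 0.18, adjusted p = 7.58e-22, and 4.24e-08 without the term). With cells placed by detected markers the log2 fold change was -5.02, from 31.4 and 17.7 CPM of total UMIs in the blastoid cells. SFRP2 was at 530 and 557 CPM against 196 and 163 CPM, 3.05-fold lower (log2 -1.61 ± 0.10, adjusted p = 1.63e-13, and 2.32e-05 without the term). The pluripotent-like cells of the blastoids thus had little SFRP1 while they held the highest SFRP2 level among the blastoid classes.

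TCF7L1 was at 129 and 143 CPM in the hESC pluripotent-like cells and at 18.8 and 19.6 CPM in the blastoid ones, 7.13-fold lower (log2 -2.83 ± 0.19, adjusted p = 2.70e-13, and 3.80e-06 without the term). With 15 principal components its log2 fold change was -3.43. LEF1 went from 1.16 and 0.678 CPM to 12.9 and 8.29 CPM, 11.3-fold higher (log2 3.49 ± 0.47, adjusted p = 7.80e-07, and 0.000565 without the term). WNT5A went from 1.91 and 1.36 CPM to 28.2 and 11.3 CPM, also 11.3-fold higher (log2 3.49 ± 0.38, adjusted p = 1.66e-08, and 0.000229 without the term). These increases rest on 22 LEF1 and 39 WNT5A UMIs in the blastoid pluripotent-like cells, and their size moved with the placement of cells. With cells placed by detected markers WNT5A was at 175 and 67.4 CPM and LEF1 at 49.1 and 30.7 CPM of total UMIs there, which gave log2 fold changes of 6.07 and 5.36. Leaving out blastoid 3 or blastoid 4 gave 2.82 or 4.11 for WNT5A.

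APCDD1, at 1.74 and 1.76 CPM in the hESC and 1.18 and 3.77 CPM in the blastoid cells, was not told apart (log2 0.54 ± 0.61, adjusted p = 0.577). Without blastoid 4 its difference was -0.59, and with cells placed by detected markers it was called higher (log2 1.88, adjusted p = 0.00309). WNT6 was at least 25.5-fold higher in the blastoid pluripotent-like cells (adjusted p = 5.04e-09, and 4.92e-05 without the term), but the call was lost under all 3 other placements of cells, with adjusted p from 0.0851 to 0.107. RSPO3 had 2 UMIs in the blastoid and 0 in the hESC pluripotent-like cells, too few for a fold. Its call (adjusted p = 0.0210) was lost with DESeq2 (adjusted p = 0.191), without blastoid 3, which held both UMIs, and without the term (adjusted p = 0.0626).

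In the fit with the sample term, 34 of 89 tested WNT genes were called higher in the blastoid pluripotent-like cells and 12 lower. Over all genes, 14% were called higher and 14.7% lower. The median log2 fold change was 0.37, against -0.04 over all genes tested. Counts for the pathway lists are given only with the term, although fewer genes were called without it. Of the 89 genes, 13 had 0 UMIs in at least 1 of the groups. Of the ligands, 10 of 12 were called higher, among them WNT5B (log2 4.61 ± 0.30), and the carrier WLS rose by 5.28 ± 0.23. Of these 12 ligands, 4 had 0 UMIs in the hESC pluripotent-like cells and could not have been called lower. Of the targets, 14 of 20 were called higher and 1 lower. Of these 20, 5 had 0 UMIs in the hESC pluripotent-like cells and could not have been called lower. CDX2 was at least 83.3-fold higher, MSX2 rose by 7.91 ± 0.28 on the log2 scale, and RNF43, a target that removes Frizzled receptors, rose by 3.62 ± 0.29. The receptors ROR1 and FZD2 fell by 2.46 ± 0.26 and 2.37 ± 0.32.

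Between trophectoderm/amnion-like and mesoderm/mesenchyme-like cells, 25 of 89 WNT genes were called higher and 40 lower. Over all genes tested, 23.8% were called higher and 24.1% lower. The median log2 fold change of the WNT genes was -0.20, against -0.04 over all genes tested. Of the 20 targets, 13 were called lower and 4 higher, the latter including MSX2 (log2 0.92 ± 0.11) and RNF43 (0.82 ± 0.15). CDX2, a gene of trophectoderm as well as mesoderm, had its lowest blastoid level in the trophectoderm/amnion-like cells (14.5 and 12.7 CPM). It was at 74.2 and 74.0 CPM in the mesoderm/mesenchyme-like and at 44.7 and 18.1 CPM in the blastoid pluripotent-like cells. RSPO2 was 69.9-fold lower in the trophectoderm/amnion-like cells (log2 -6.13 ± 0.26), the same direction as its relative RSPO3. TCF7L2, a TCF factor related to TCF7L1, was higher there (log2 1.90 ± 0.10), and WLS was also higher (0.88 ± 0.12). The planar polarity gene PRICKLE1 was 9.41-fold lower (log2 -3.23 ± 0.23), and the receptors FZD2 and ROR1 were lower by 1.55 ± 0.15 and 0.88 ± 0.14 on the log2 scale.

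Shares of cells with at least 1 UMI were taken after every cell was thinned to 2000 UMIs, which left out 435 and 973 shallower cells of the hESC samples and 107 and 42 of the blastoids. WNT5A was then found in 45.1% and 38.1% of mesoderm/mesenchyme-like cells, in 2.21% and 3.57% of trophectoderm/amnion-like cells and in 0.333% and 0.227% of hESC cells. Before thinning, when the median depths of the mesoderm/mesenchyme-like cells were 6179 and 8401 UMIs, the share was 72.7% and 75.1%. WNT6 was in 6.08% and 9.58% of trophectoderm/amnion-like and 0.232% and 0.261% of mesoderm/mesenchyme-like cells, and it was in 20.8% and 28.5% of the former before thinning at median depths of 6221 and 9064 UMIs. In the hESC samples 0 of 1803 and 0 of 2202 cells had a WNT6 UMI, which allows shares of up to 0.166% and 0.136%.

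LEF1 was in 28.8% and 25.5% of mesoderm/mesenchyme-like and 7.73% and 3.73% of trophectoderm/amnion-like cells after thinning (60.9% and 67.3%, and 15.7% and 14.7%, before it). SFRP1 was in 70.2% and 73.3% of hESC cells, and in 2.41% and 2.80% of blastoid pluripotent-like cells. SFRP2 was in 61.5% and 63.6% of hESC cells, in 24.1% and 24.3% of blastoid pluripotent-like cells, and in 0% and 0.974% of trophectoderm/amnion-like cells, where 0 of 362 allows up to 0.829%. TCF7L1 was in 20.5% and 23.7% of hESC cells. The order of classes by these shares followed the order by CPM for SFRP1 and SFRP2 in both blastoid samples. It did not for WNT6 in blastoid 3, with shares of 0% in pluripotent-like (0 of 83, which allows up to 3.61%) and 0.232% in mesoderm/mesenchyme-like cells, nor for WNT5A in blastoid 4, with 3.74% in pluripotent-like and 3.57% in trophectoderm/amnion-like cells.

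Within the mesoderm/mesenchyme-like class the members varied from cluster to cluster, given here as CPM of total UMIs in blastoid 3 and 4 and as a description without a test. Cluster 9, led by MESP1, MSGN1, HOXA-AS3, NTS and MIXL1, genes that include markers of nascent mesoderm, had the highest WNT5A level (574 and 418 CPM) and the lowest levels of APCDD1 (11.9 and 11.5 CPM) and TCF7L1 (20.2 and 23.0 CPM) in the class. It held 222 and 40 cells. Cluster 6, led by CXCL14, POSTN, SST, MGP and DCN, had the lowest levels of WNT5A (113 and 134 CPM), LEF1 (80.8 and 69.1 CPM) and SFRP1 (13.1 and 20.3 CPM) in the class. Both samples thus placed these clusters at the ends of the WNT5A range.

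Cluster 1, led by TECRL, TMEM88, PLAT, PRPH and NPNT, had the highest LEF1 level (256 and 204 CPM). Cluster 11, led by SOST, NTRK2, TGM2, KYNU and CRHBP and holding 64 and 76 cells, had the highest RSPO3 level (108 and 102 CPM) and the highest TCF7L1 level of the class (66.3 and 62.0 CPM). Across the 5 mesoderm/mesenchyme-like clusters RSPO3 ranged from 13.5 to 108 CPM in blastoid 3 and from 6.89 to 102 CPM in blastoid 4. WNT6 stayed at or below 2.65 CPM in each of them and was at 39.8 and 41.0 CPM in cluster 2, the single trophectoderm/amnion-like cluster.

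**Figure D4:**
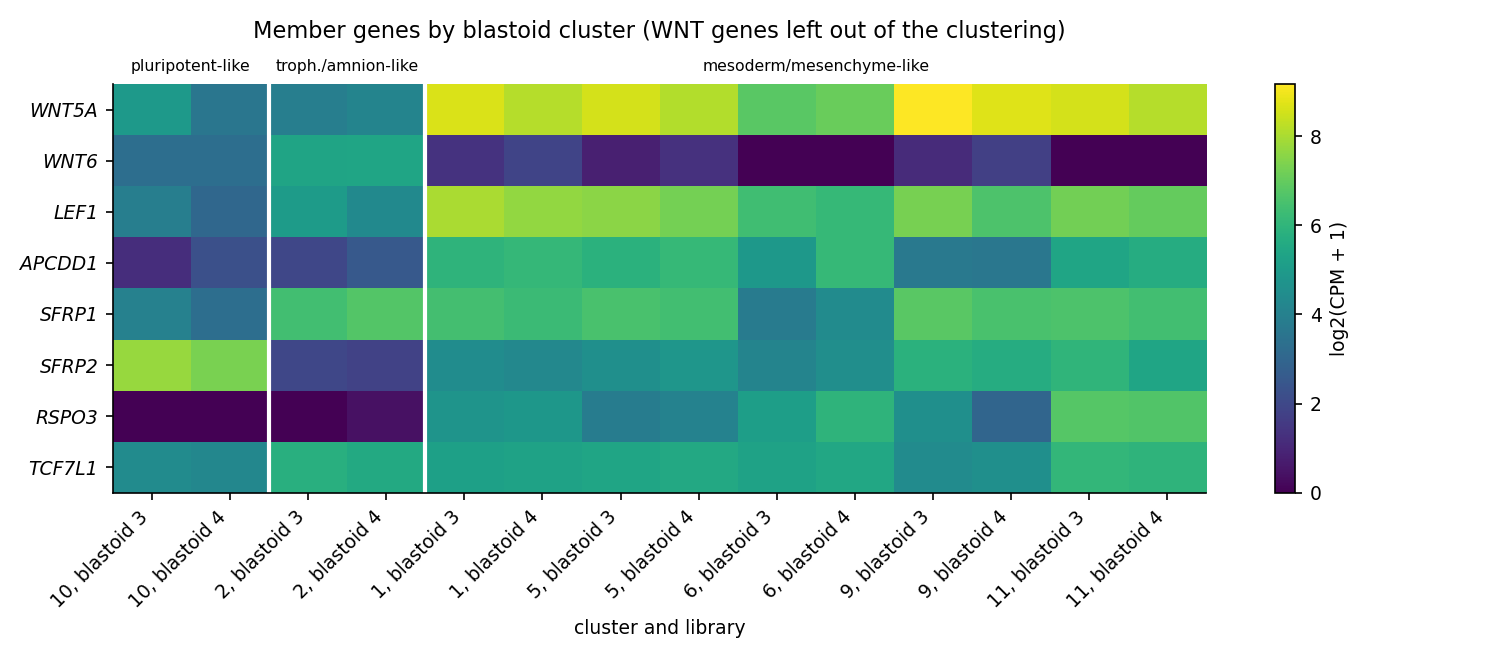
Colour gives log2(CPM + 1), with CPM of total UMIs, of each member (rows) in the cells of each blastoid cluster and sample (columns, grouped by class). WNT5A was highest in cluster 9 and RSPO3 in cluster 11, SFRP2 was highest in cluster 10, the pluripotent-like cluster, and WNT6 in cluster 2.

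The genes most like each member were found by Pearson's r of log2(CPM + 1) over the 8 sums of a sample and class, among 7879 genes. Such sums share libraries and contain few independent points, so the values are a description. PRRX1, a transcription factor of mesenchyme (r = 0.997), and HOXB-AS3 (0.993) were most like WNT5A, and COL3A1 (0.995) and GATA6 (0.994) were most like LEF1. PRRX1 and COL3A1 are among the markers that named the classes behind these sums. Their r values are therefore not independent of that naming. TFAP2B and PERP, genes of epithelia (both 0.994), were most like WNT6. For APCDD1 they were TPST1 (0.992) and SLC39A2 (0.981), and for RSPO3 TRIM44 (0.991) and PTPN13 (0.989). SFRP1 and TCF7L1 were among the nearest genes of each other (0.987). NUP35 (0.996) and MIS18A (0.994) were most like SFRP2.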

How the data were processed

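Single-cell RNA was measured in 2 hESC and 2 blastoid samples with 10x Genomics Chromium 3′ v3.1 chemistry, per the labels' protocols. For each sample the authors deposited raw UMI counts, with symbols in rows and barcodes in columns; Cell Ranger and GRCh38 are named in the submitters' processing notes, and versions, annotation, strand setting and filters were not given in the sources used here. Groups come from the sample descriptions. The member genes and all lists were chosen with earlier results of these data known.

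A barcode was kept with 500 genes or more and no more than 20% mitochondrial UMIs, unless Scrublet marked it (scanpy 1.11.5, expected rate 6%), which marked 73 of 9680 barcodes (0.754%), so doublets of similar cells may remain. Kept cells numbered 2238, 3175, 2278 and 1916, with 13255214, 15913590, 15106405 and 17679447 UMIs, in hESC 1, hESC 2, blastoid 3 and blastoid 4. The samples of a group differed by more than counting noise (chi-square per degree of freedom 4.87 and 23.9), so none was treated as a copy of another library.

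Counts were summed per sample, or per sample and class, and tested with edgeR 4.0.16 (R 4.3.3, TMM, filterByExpr, quasi-likelihood, two-sided, Benjamini-Hochberg over all genes tested), with a sample term in the class fit. Where leaving out 1 sample left an arm with a single sum, that sum was assumed to vary like the other groups of the fit. Each ± value is the size of the log2 fold change divided by the square root of the test's F value. It is thus an approximate SE drawn from the same test as the p-value, not a separate estimate of spread. The tests were also run on simulated data. DESeq2 1.42.0 was an alternative. Cells were clustered without batch correction on 2000 variable genes scaled to 10000 UMIs per cell, without the 102 WNT genes (30 principal components, 15 neighbours, Leiden resolution 0.5). A cluster took the class with the most markers found in 10% or more of its cells, and needed 3 such markers. A cluster of shallow cells also needed a marker of its class among its leading genes. Cluster 7, 423 cells with a median of 1134 UMIs, had 9 pluripotent markers but 0 among its leading genes and stayed unnamed. Cluster 4, with a median of 1025.5 UMIs, had 1 among them and was named pluripotent-like. Class names were rebuilt from markers, so they may differ from those of the study. A missing gene was given 0 counts; bounds used 9.15 counts for genes missing from both hESC tables, which is the exact 95% limit for 4 counts, taking 2 in each table, and 3 counts for listed genes. Intervals for ratios and limits for shares cover counting error only.

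In each comparison the members were named, and from each role list the 2 largest rises and falls among called genes whose mean log2 CPM was 4 or more, of which the text gives a part. Likeness was computed among genes with at least 20 CPM in 2 or more sums, not every gene so found is reported here, and clusters are described by their 5 leading genes. Alternatives covered scaling, filters, tools, left-out samples, shared barcodes, cell thresholds, thinning, clustering and cell placement. No column outside the 4 samples was present. A promoter sequence and coordinates for SFRP1 are not reported here.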

Additional observations from a re-analysis of the deposited data

How the results depend on the processing

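No paired analysis was possible because the hESC and blastoid samples share no replicate numbers. Of 507 member values under alternatives, 480 kept their direction and side of the threshold, 16 lost the call, 3 gained one and 8 changed sign; all 104 in the all-cell comparison kept theirs. The sign changes were WNT6 in mesoderm/mesenchyme-like against pluripotent-like cells (log2 1.11, 1.47 and 1.62 at Leiden resolution 1.0, with 15 principal components and with cells placed by detected markers), and, in trophectoderm/amnion-like against pluripotent-like cells, WNT5A (-1.02 to 0.65 with 1 sample left out, the latter without blastoid 3, and 0.31 at resolution 1.0), LEF1 (-0.47) and APCDD1 (-0.55), both with cells placed by detected markers. APCDD1 in blastoid against hESC pluripotent-like cells was -0.59 without blastoid 4. The cause of these changes was not tested. The numbers of genes called were, in the order all cells, mesoderm/mesenchyme-like against pluripotent-like, trophectoderm/amnion-like against pluripotent-like, trophectoderm/amnion-like against mesoderm/mesenchyme-like and blastoid against hESC pluripotent-like, 8157, 5017, 5107, 7625 and 4577. Requiring a log2 fold change past 1 as well left 4850, 3027, 2968, 3755 and 2309. Leaving out 1 sample gave 4896 to 10157, 2509 to 5040, 2253 to 5110, 5025 to 7599 and 2642 to 4278, the lowest without hESC 1 in the first and without blastoid 4 in the others. Without shared barcodes the second, the third and the last comparison called 2930, 2909 and 2847, and without a sample term the last called 2930. With library size alone in place of TMM, the share of higher calls went from 49.7% to 39.5% in trophectoderm/amnion-like against mesoderm/mesenchyme-like cells and from 48.8% to 62% in the last comparison, and the median of all genes in the all-cell comparison from 0.05 to 0.18 on the log2 scale. No member changed sign under that scaling. Counting depth limits WNT6, RSPO3, LEF1 and WNT5A in the blastoid pluripotent-like cells, where they had 19, 2, 22 and 39 UMIs.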

Other observations

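SP5, a target gene of β-catenin that also limits WNT signalling, was outside the rule for named genes and was chosen after its values were seen. It was at 36.4 and 73.9 CPM in the pluripotent-like cells of blastoid 3 and 4, at 8.71 and 9.01 CPM in the mesoderm/mesenchyme-like cells, at 1.06 and 0.870 CPM in the trophectoderm/amnion-like cells, and at 0.166 and 0 CPM in the hESC pluripotent-like cells. Within the mesoderm/mesenchyme-like class it was highest in cluster 9, the MESP1 and MSGN1 cluster, at 29.1 and 62.0 CPM of total UMIs, where WNT5A was also highest.

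SOST, a secreted inhibitor that binds LRP co-receptors, led cluster 11, the cluster with the highest RSPO3 level, but it differed between the samples: it was at 5.52 CPM of total UMIs in blastoid 3 and 143 CPM in blastoid 4, whereas RSPO3 was at 108 and 102 CPM there.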
